A study of Mus musculus with 74 samples.

Results

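Vomeronasal type 1 receptor genes were taken as every autosomal protein-coding gene whose symbol begins with Vmn1r in the GENCODE M21 annotation of the mouse genome (mm10). The rule gave 208 gene entries with 207 distinct symbols, among 20807 autosomal protein-coding genes. Vmn1r216 is annotated as a pair of overlapping entries with the same coding sequence, and both entries were kept. The members lie mainly on chromosome 7 (103 genes), chromosome 6 (51), chromosome 13 (36) and chromosome 17 (14). Chromosome 4 holds 2 members, and chromosomes 1 and 18 hold 1 each.

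Vmn1r genes encode G protein-coupled receptors of the vomeronasal organ, a chemosensory epithelium at the base of the nasal septum that reads pheromones and other social odours. Each receptor neuron is thought to use a single receptor gene of the family and to keep the rest silent. The receptors signal through the G protein subunit encoded by Gnai2 and, downstream, the cation channel encoded by Trpc2. The genes sit in tandem arrays that grew by repeated duplication in rodents, so many members are close copies of their neighbours. H3K9me3, trimethylation of lysine 9 of histone H3, is the modification typical of constitutive heterochromatin and of silenced gene arrays.

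The study mapped H3K9me3 during somatic cell nuclear transfer (SCNT), in which the nucleus of a cumulus cell replaces that of an oocyte. The antibody was used on MNase-cut chromatin from small numbers of cells (ULI-NChIP-seq), and an input library was made for each group. Cumulus cells (CC), the donors, and the oocytes came from BDF1 mice (B6D2F1 hybrids). The SCNT embryos were collected 6 h and 14 h after activation (6 hpa and 14 hpa) and as 2-cell, 4-cell and 8-cell embryos, morulae, and blastocysts split into the inner cell mass, ICM, and the trophectoderm, TE. Reconstructed oocytes had been activated with SrCl2 in the presence of cytochalasin B. Fertilized zygotes at the pronuclear stage PN5 served as the counterpart of the 14 hpa embryos, and the labels give C57BL/6 females mated with C57BL/6 males for fertilized embryos. The methods credit the PN5 data to an earlier publication, whose mice are not described in the sources used here. Strain, data source and origin of the embryo cannot be told apart in any comparison with PN5.

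The deposited data were 10 lists of broad peaks, each called once on the pooled libraries of a group. The precipitated libraries behind a list numbered 4 for CC, 5 for 6 hpa, 4 for 14 hpa, 6 for 2-cell, 3 for 4-cell, 7 for 8-cell, and 6 for morula. ICM, TE and PN5 had 2 each. Because replicates were pooled, each group gave a single value and no difference between lists could be tested against replicate error. The Wilson 95% intervals below cover counting error over the 208 genes, and neighbouring genes are not independent draws. The lists held 105358 to 184050 autosomal peaks and covered 123 Mb (2-cell) to 212 Mb (CC) of the autosomes. A gene body was called marked when merged peaks covered at least 50% of it, and a promoter when they covered at least 50% of the window reaching 1 kb to either side of the annotated gene start. Peak lists carry no expression values, so neither the cell types nor the use of any receptor could be checked in them.

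Most members fell into 8 clusters of at least 5 genes, joined where gaps between members were at most 1 Mb, which together held 201 genes. Chromosome 6 carried cluster 6a (chr6:56924015-58475330, 28 genes, Vmn1r4 to Vmn1r31), cluster 6b (chr6:66552180-66810609, 8 genes, Vmn1r32 to Vmn1r39) and cluster 6c (chr6:89707540-90271213, 15 genes, Vmn1r40 to Vmn1r54). Chromosome 7 carried cluster 7a (chr7:5129291-6011010, 11 genes, Vmn1r55 to Vmn1r65), cluster 7b (chr7:10272991-13220657, 24 genes, Vmn1r66 to Vmn1r89) and cluster 7c (chr7:20099680-24063554, 65 genes, Vmn1r91 to Vmn1r183). Cluster 13 (chr13:22084440-23253906) held 36 genes from Vmn1r188 to Vmn1r223, and cluster 17 (chr17:20414146-21314912) held 14 from Vmn1r224 to Vmn1r237. The remaining 7 members lay outside these clusters.

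The genes were poor in GC and in CpG dinucleotides. The median gene body had 38.9% GC against 45.4% over all autosomal protein-coding genes, and the median promoter window held 7 CpG against 64. Soft-masked repeats made up 30.1% of the median member body and 22.4% of the median body of all genes. For 53 members, 50 of them on chromosome 7, the annotated gene was the coding sequence alone, with a median length of 924 bp. The other 155 models included more than the coding sequence and had a median length of 8787 bp. The annotated start of the short models is that of the reading frame, so their promoter windows need not hold the true transcription start. Copies were closest in cluster 7c, where 88.4% of the 75-base words of the median member occurred more than once in the genome on either strand. The same median was 9.96% in cluster 7a, 3.73% in cluster 6a, 3.5% in cluster 13, 2.08% in cluster 6c, 1.58% in cluster 7b, 1.22% in cluster 6b and 0.943% in cluster 17. Sources used here do not say how reads that align to several copies were handled.

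RefSeq start windows (build GRCm38.p6, 250 bases before to 50 after the gene start) were matched by symbol for 183 of the 208 members. They held a median of 1 CG dinucleotide against 15 over 15687 matched autosomal protein-coding genes. At least 1 CG was present in 76.0% of the members' windows and in 95.2% of all. The 6 windows below, chosen after the coverage values were seen, belong to members whose RefSeq and GENCODE starts coincide. Vmn1r48 (chr6:90036792-90037091, minus strand) and Vmn1r65 (chr7:6010961-6011260, minus strand) had the highest mean coverage of their clusters. Vmn1r104 (chr7:20533587-20533886, plus strand) was covered in full in CC and had no covered base at 6 hpa. Vmn1r158 (chr7:22790733-22791032, minus strand) was marked in 7 lists, and its near copy Vmn1r119 (chr7:21012406-21012705, minus strand) in none. Vmn1r194 (chr13:22243965-22244264, plus strand) has no CG in the window and no covered base in any list. Capitals mark CG, the dinucleotide that DNA methylation uses in mammals.
Vmn1r48: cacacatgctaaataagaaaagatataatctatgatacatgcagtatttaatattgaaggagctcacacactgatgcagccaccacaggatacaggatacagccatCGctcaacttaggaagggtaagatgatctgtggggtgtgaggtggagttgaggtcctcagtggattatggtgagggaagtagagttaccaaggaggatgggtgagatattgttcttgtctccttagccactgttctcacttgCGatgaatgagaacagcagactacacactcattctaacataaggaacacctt
Vmn1r65: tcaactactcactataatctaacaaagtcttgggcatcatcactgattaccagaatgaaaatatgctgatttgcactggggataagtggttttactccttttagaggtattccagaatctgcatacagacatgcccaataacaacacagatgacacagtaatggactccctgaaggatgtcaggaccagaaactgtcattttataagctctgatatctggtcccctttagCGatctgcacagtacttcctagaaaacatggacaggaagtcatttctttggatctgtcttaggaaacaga
Vmn1r104: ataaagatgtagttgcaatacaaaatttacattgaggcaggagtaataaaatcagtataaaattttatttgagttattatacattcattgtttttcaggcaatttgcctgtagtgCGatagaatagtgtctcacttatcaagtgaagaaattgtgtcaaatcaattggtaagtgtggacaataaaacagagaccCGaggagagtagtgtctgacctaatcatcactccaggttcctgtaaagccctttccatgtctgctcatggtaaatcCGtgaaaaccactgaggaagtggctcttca
Vmn1r158: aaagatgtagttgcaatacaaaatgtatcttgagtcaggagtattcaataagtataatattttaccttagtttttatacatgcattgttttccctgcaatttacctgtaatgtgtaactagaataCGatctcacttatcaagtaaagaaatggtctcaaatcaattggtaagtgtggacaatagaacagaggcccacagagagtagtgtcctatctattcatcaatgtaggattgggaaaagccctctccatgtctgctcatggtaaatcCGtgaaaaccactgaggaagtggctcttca
Vmn1r119: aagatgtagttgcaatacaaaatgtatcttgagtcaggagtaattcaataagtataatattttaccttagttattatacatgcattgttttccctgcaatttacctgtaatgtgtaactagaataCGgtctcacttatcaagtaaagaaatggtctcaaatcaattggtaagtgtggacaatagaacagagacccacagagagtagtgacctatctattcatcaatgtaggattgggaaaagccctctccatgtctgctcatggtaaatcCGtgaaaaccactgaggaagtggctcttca
Vmn1r194: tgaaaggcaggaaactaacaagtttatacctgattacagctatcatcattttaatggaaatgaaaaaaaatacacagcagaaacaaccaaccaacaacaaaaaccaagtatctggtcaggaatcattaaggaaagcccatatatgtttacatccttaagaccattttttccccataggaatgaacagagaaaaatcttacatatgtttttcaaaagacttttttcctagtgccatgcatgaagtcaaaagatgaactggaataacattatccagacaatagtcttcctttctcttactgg
In a global alignment, the windows of Vmn1r158 and Vmn1r119 were identical at 98.0% of 301 columns. Vmn1r104 shared 84.1% with Vmn1r158 and 84.8% with Vmn1r119. All other pairs among the 6 lay between 51.4% and 54.4%.

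In cumulus cells the Vmn1r genes were covered far more often than other genes. There, 109 of 208 bodies were marked, 52.4% (95% interval 45.6 to 59.1), where 4.11% of all autosomal protein-coding bodies were. Mean coverage of a member body was 49.2%, with a median of 55.6%, against a mean of 5.88% over all genes. The spread among members was wide: 28 bodies were covered in full and 46 (22.1%) had no covered base. Over all genes 54.6% of bodies had none in CC. Promoters gave a similar share, with 93 marked (44.7%, interval 38.1 to 51.5) against a background of 3.75%. When only the coding sequence was scored, 120 members (57.7%) were marked.

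Every embryo list gave a lower share. At 6 hpa 20 bodies were marked (9.62%, interval 6.31 to 14.4) against 3.29% of all genes. At 14 hpa the count was 27 (13.0%, interval 9.08 to 18.2) against 2.9%. At the 2-cell stage it was 6 (2.88%, interval 1.33 to 6.15) against 1.62%, and at the 4-cell stage 1 (0.481%, interval 0.0849 to 2.67) against 2.08%. The 8-cell list marked 5 (2.4%) against 2.09% and the morula list 6 (2.88%) against 1.52%. ICM and TE marked 4 bodies each (1.92%), against 0.952% and 0.788% of all genes. PN5 marked 9 (4.33%, interval 2.29 to 8.02) against 1.99%. From the 2-cell stage to the blastocyst each member count thus had an interval that held the background share, and in CC, 6 hpa, 14 hpa and PN5 it did not.

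**Figure D1:**
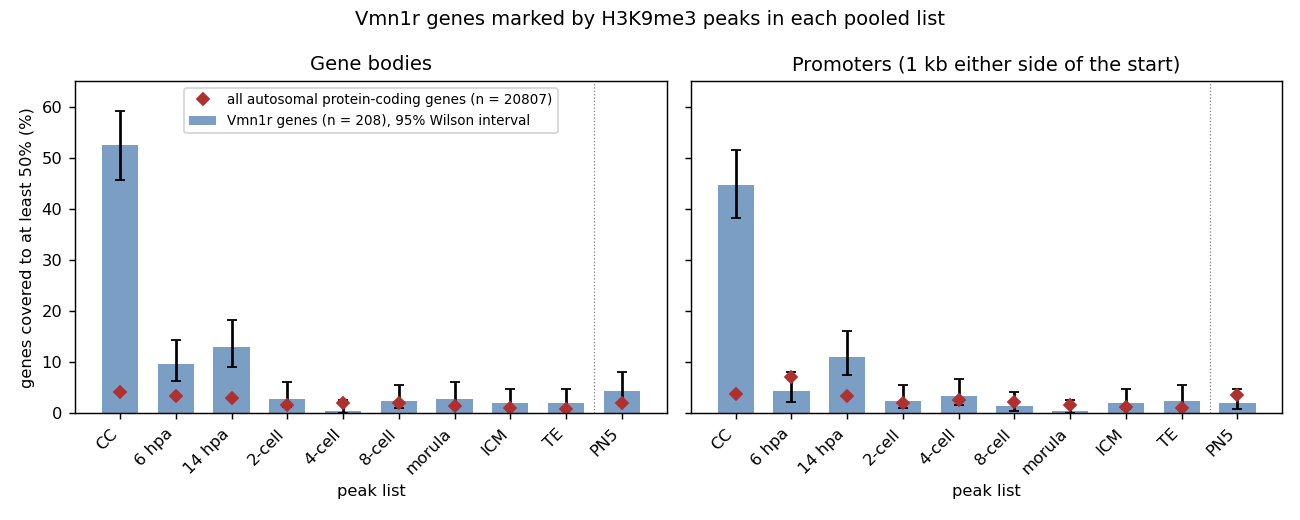
Percent of Vmn1r genes whose body (left) or promoter (right) was covered to at least 50% by H3K9me3 peaks in each of the 10 pooled lists. Bars are the 208 Vmn1r genes with Wilson 95% intervals (counting error only) and diamonds are all 20807 autosomal protein-coding genes. The CC bars reach 52.4% and 44.7% while the diamonds stay at 4.11% and 3.75%.

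Promoters gave shares close to those of bodies in CC and at 14 hpa. At 14 hpa 23 promoters were marked (11.1%) against 3.31% of all promoters. At 6 hpa only 9 were (4.33%, interval 2.29 to 8.02), below the 7.17% of all promoters. The remaining lists marked 5 promoters at 2-cell against a background of 1.94%, 7 at 4-cell against 2.55%, 3 at 8-cell against 2.29%, 1 in morula against 1.66%, 4 in ICM against 1.14%, 5 in TE against 1.04% and 4 in PN5 against 3.65%. Mean promoter coverage was 42.6% in CC, against 8.76% at 6 hpa and 14.0% at 14 hpa, and 2.87% to 5.22% in the other lists.

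Clusters differed sharply in the donor cells. In CC, 56 of the 65 members of cluster 7c were marked, 10 of 11 in 7a, 13 of 24 in 7b and 22 of 36 in cluster 13. On chromosome 6 the counts were 0 of 28 in 6a, 0 of 8 in 6b and 1 of 15 in 6c, and cluster 17 had 2 of 14. By chromosome, 79.6% of the chromosome 7 members and 61.1% of those on chromosome 13 were marked, against 1.96% on chromosome 6. Other protein-coding genes of the same chromosomes were marked at 10.8%, 3.99% and 0.566%. Without the chromosome 7 members the CC share was 25.7%.

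In cluster 6b no gene body was covered. None of its 8 members, Vmn1r32 to Vmn1r39, had a covered base in any of the 10 lists, although 3.13% (PN5) to 15.6% (morula) of the cluster sequence was covered. In single lists, 38.4% (6 hpa) to 68.5% (2-cell) of all autosomal protein-coding bodies had no covered base. In all, 23 members (11.1%) had no covered base anywhere, a share that was not computed over all genes. The others were 11 genes of cluster 6a, among them Vmn1r10, Vmn1r11, Vmn1r15 and Vmn1r17, then Vmn1r119 and Vmn1r129 in cluster 7c, Vmn1r194 in cluster 13 and Vmn1r233 in cluster 17. The best covered member of cluster 6a was Vmn1r30, with a mean over the lists of 12.0% and its highest value, 31.5%, in PN5. The surroundings of such genes were not free of peaks. The 10 kb on either side of Vmn1r119 were covered to 67.2% in CC and 48.6% at 14 hpa, and those of Vmn1r194 to 68.2% and 41.1%.

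**Figure D2:**
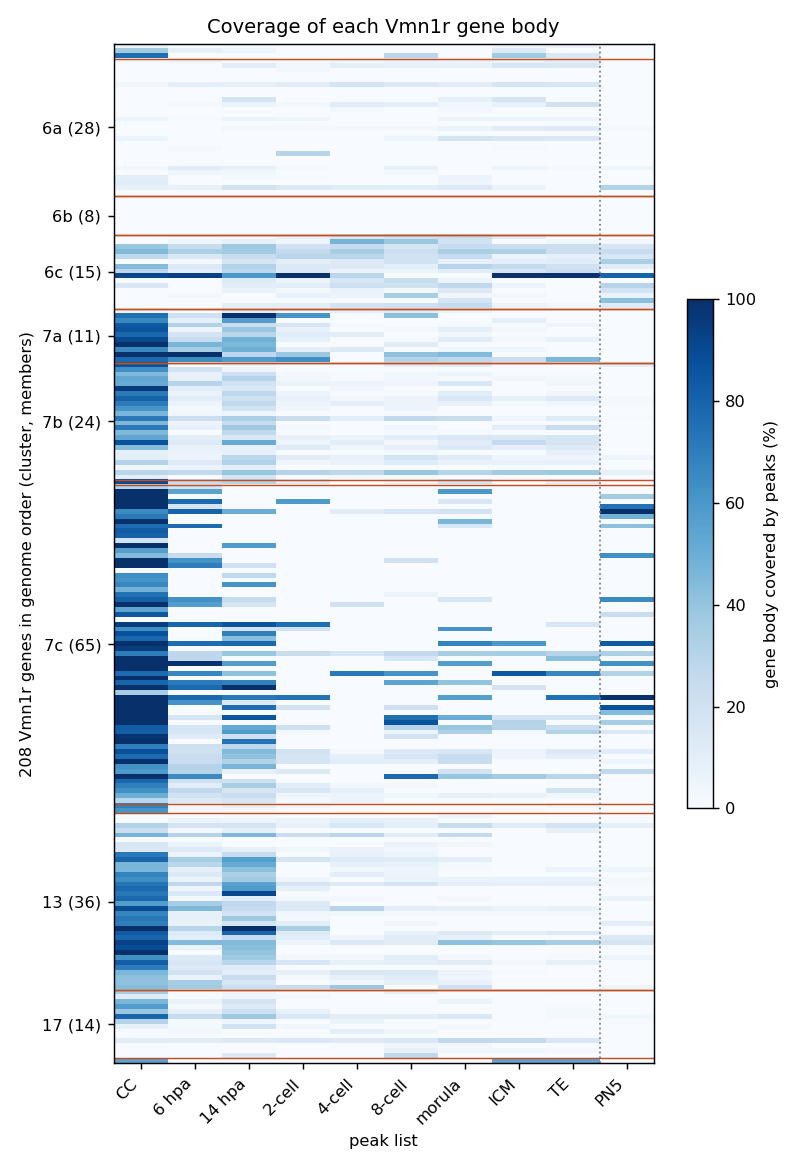
Percent of each of the 208 Vmn1r gene bodies (rows, in genome order) covered by peaks in the 10 lists (columns). Lines bound the 8 clusters, named with their numbers of members. In CC most rows of clusters 7a, 7b, 7c and 13 are dark while clusters 6a and 6b are nearly empty. From the 2-cell stage on single genes stand alone, many of them short genes of cluster 7c and some of other clusters.

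Scored over whole clusters, genes and spaces together, the same division appeared. The 8 clusters span 12.2 Mb, of which peaks covered 58.2% in CC when they covered 8.86% of the autosomes. In CC, coverage was 81.5% in cluster 7a, 71.6% in 7c, 70.2% in 13 and 65.1% in 7b, and 37.1%, 36.6%, 17.1% and 6.17% in clusters 17, 6c, 6a and 6b. The longest merged stretch in CC ran for 79390 bp (chr7:11534474-11613863, cluster 7b) and touched no member. Of the 2074 stretches in the clusters in CC, 6.89% were at least 10 kb long, against 1.34% over the autosomes. At 6 hpa that share was 0.0424% of 2360 stretches, below the autosomal 0.191%, and at 14 hpa it was 0.888% of 2590, near the autosomal 0.699%.

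In the embryos the clusters lay closer together. Total cluster coverage was 20.4% at 6 hpa and 34.8% at 14 hpa. The cleavage stages gave 14.0%, 12.2% and 12.6% in order, morula gave 19.2%, ICM 17.3% and TE 15.4%, and PN5 gave 9.63%. The autosomes were covered to between 5.12% and 8.63% in these lists. In morula the lowest cluster was 17 at 13.3% and the highest 6c at 24.97%, a much smaller range than in CC. Cluster 6c, which holds receptors of the V1ra and V1rb families, was the only cluster above 19% in every list from 2-cell to TE. Its values there ran from 19.5% (TE) to 24.97% (morula).

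**Figure D3:**
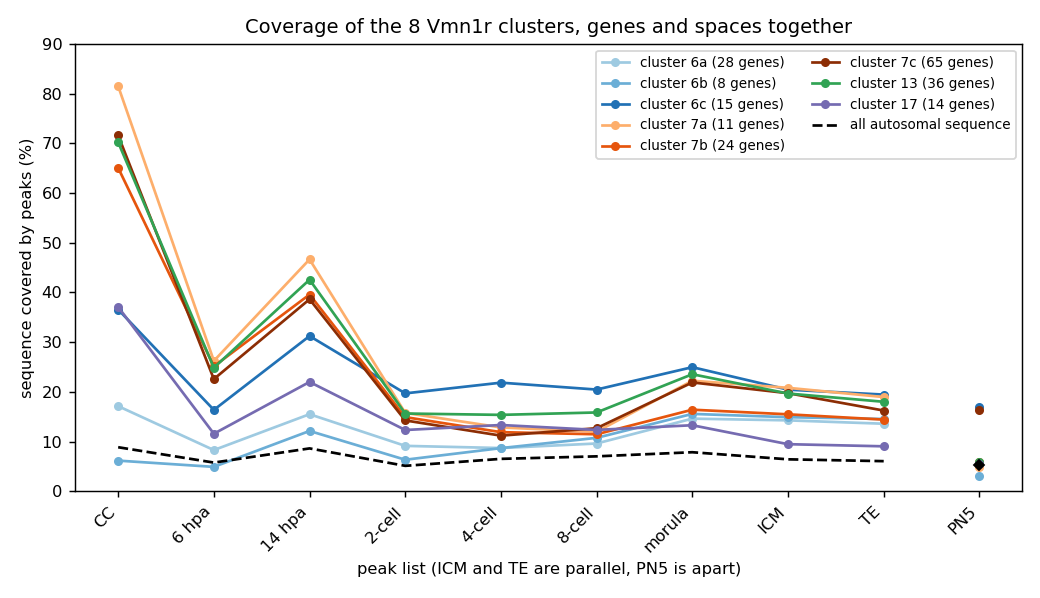
Percent of the sequence of each Vmn1r cluster covered by peaks in each list, with all autosomal sequence as a dashed line. ICM and TE are parallel lineages of the blastocyst, and the PN5 zygote stands apart from the SCNT series. Clusters of chromosomes 7 and 13 start at 65.1% to 81.5% in CC, sit at 22.6% to 26.2% at 6 hpa and at 38.6% to 46.7% at 14 hpa, and join the others from the 2-cell stage.

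Between cumulus cells and 6 hpa, 89 of the 109 marked members were no longer marked and no member was newly marked. That is 81.7% of the marked members, where 65.3% of all genes marked in CC were unmarked at 6 hpa. Coverage was lower at 6 hpa in 152 members, higher in 17 and equal in 39, with a mean difference of -34.3 percentage points against 0.91 over all genes. Vmn1r104 and Vmn1r114, both in cluster 7c, went from 100% in CC to 0% at 6 hpa. The largest difference in the other direction was that of Vmn1r101, from 65.04% to 80.1%, followed by Vmn1r26 in cluster 6a, from 3.02% to 11.3%. The CC list covers 212 Mb of autosomes and the 6 hpa list 138 Mb. With every list trimmed to the length of the shortest by its highest peaks, 23.6% of members were marked in CC against 2.19% of all genes, and the difference between 6 hpa and CC was -14.9 points where the full lists gave -42.8. Of the 20 members marked at 6 hpa, 17 lay in cluster 7c, 2 in 7a and 1 in 6c.

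From 6 hpa to 14 hpa more members were higher than lower. Coverage was higher in 110 members, lower in 46 and equal in 52, and the mean difference was 5.95 points against -1.18 over all genes. Of the marked members, 18 were marked at 14 hpa only, 11 at 6 hpa only and 9 in both. Thus 55% of the members marked at 6 hpa were unmarked at 14 hpa, near the 56.0% over all genes marked at 6 hpa. In cluster 7a, Vmn1r56 had 75.7% of its body covered in CC, against 20.7% at 6 hpa and 100% at 14 hpa. Vmn1r205 in cluster 13 had 72.0%, 13.8% and 90.8% in the same lists. All 7 members of cluster 13 that were marked at 14 hpa were unmarked at 6 hpa. Vmn1r95 and Vmn1r107 in cluster 7c went the other way, from 77.7% and 76.6% at 6 hpa to 0% at 14 hpa. Of the 27 members marked at 14 hpa, 26 had been marked in CC, and the exception, Vmn1r199, had 46.2% there. Relative to CC, 76.1% of the marked members and 48.8% of all marked genes were unmarked at 14 hpa. The 14 hpa list covers 207 Mb of autosomes and the 6 hpa list 138 Mb. In the trimmed lists, 8.65% of members were marked at 6 hpa and 4.33% at 14 hpa, so the higher share at 14 hpa was not seen at equal length. Over all genes the trimmed lists gave 3.06% and 1.32%, and the members' share was above that background in both.

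At the 2-cell stage fewer members were marked. Of the 27 members marked at 14 hpa, 22 (81.5%) were unmarked at 2-cell, against 64.9% of all genes marked at 14 hpa. The 2-cell list is the shortest, and against the 14 hpa list trimmed to its length the difference was -1.44 points (2.88% against 4.33%) where the full lists gave -10.1. Vmn1r155 went from 100% to 0% and Vmn1r205 from 90.8% to 0%. Vmn1r95 had 0% at 14 hpa and 58.9% at 2-cell, and Vmn1r48 had 59.7% and 100%. Vmn1r65 and Vmn1r56, both in cluster 7a, were still marked, at 63.5% and 60.8%. The 109 members marked in CC had a mean coverage of 8.9% at 2-cell, 3.39% at 4-cell and 9.98% in morula, and in the 99 other members it was 4.11%, 5.42% and 5.8%. The order of these groups was thus reversed at the 4-cell stage.

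From the 4-cell stage on, each SCNT list marked 1 to 6 members. The only body marked at 4-cell was that of Vmn1r149, at 71.9%, and it was also marked at 8-cell (61.1%), in ICM (84.4%) and in TE (66.7%) but had no covered base in morula. The 8-cell list marked Vmn1r166 at 86.6%, and that gene had no covered base at 4-cell or in morula. Morula marked 6 members, all in cluster 7c, among them Vmn1r131 at 61.1% and Vmn1r93 at 59.4%, and both were at 0% in ICM and TE. ICM and TE shared 3 marked members. Of the members marked in TE, 25% were unmarked in ICM, near the 26.8% of all genes marked in TE. The ICM value of Vmn1r137 was 59.7% and its TE value 0%, while Vmn1r158 had 0% and 75%. Over all members ICM and TE differed by a mean of -0.307 points (ICM minus TE), with 39 higher in ICM, 45 lower and 124 equal.

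The PN5 zygotes marked fewer members than the SCNT embryos at 14 hpa. Both lists marked 6, 21 were marked at 14 hpa only and 3 at PN5 only. Thus 33.3% of the members marked in PN5 were unmarked at 14 hpa, against 68.4% of all genes marked in PN5. Coverage was higher at 14 hpa in 129 members and lower in 24, with a mean difference of 14.0 points against -0.72 over all genes. Vmn1r155 and Vmn1r212 were covered in full at 14 hpa and not at all in PN5. Vmn1r100 (0% at 14 hpa, 74.2% in PN5) and Vmn1r116 (0% and 63.0%) showed the opposite. Of the 9 members marked in PN5, 8 lay in cluster 7c and the last was Vmn1r48. Cluster coverage at 14 hpa against PN5 was 46.7% against 4.87% in 7a, 39.6% against 5.86% in 7b, 42.6% against 5.88% in 13 and 38.6% against 16.4% in 7c. The PN5 list covers 129 Mb of autosomes. When lists were trimmed to equal length both shares came to 4.33%, against 1.32% of all genes at 14 hpa and 1.93% in PN5.

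A few members carried peaks through much of the series. Of the 208, 97 were marked in no list, 70 in 1, 23 in 2 and 18 in 3 to 7. Vmn1r48 in cluster 6c (chr6:90035933-90036841) had 91.0% of its body covered in CC, then 93.3% at 6 hpa, 59.7% at 14 hpa, 100% at 2-cell and 28.3% at 4-cell. It had no covered base at 8-cell or in morula, 100% in both ICM and TE, and 80.1% in PN5. It was the only member of its cluster with a marked body in any list, although the promoters of 7 others there were marked in 1 to 6 lists, and the peak of highest fold over any member in CC lay on it, at 5.00 over input. Vmn1r158 (chr7:22789859-22790782) had 100% in CC and PN5, 78.9%, 71.6% and 74.1% at 6 hpa, 14 hpa and 2-cell, 56.9% in morula and 75% in TE, with no covered base elsewhere. Vmn1r137 and Vmn1r149 were marked in 6 lists and Vmn1r143 in 5. These 5 are coding-only models of 909 or 924 bp, in which 56.1% to 100% of 75-base words are repeated in the genome. Another 5 members were marked in 4 lists. Of these, Vmn1r101, Vmn1r130, Vmn1r152 and Vmn1r165 had 95.02% to 100% of words repeated, and Vmn1r65 had 1.66%. In cluster 7b the highest mean, 30.3%, belonged to Vmn1r88, which ranged from 8.5% to 39.1% and was never marked. Vmn1r215 led cluster 13 with a mean of 34.7%, and Vmn1r229 led cluster 17 with 19.7%.

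Repeated sequence moved with the calls and not evenly over the lists. At least 50% of 75-base words were repeated in 51 members. These gave 45 of the 109 marked bodies in CC, 17 of 20 at 6 hpa, 13 of 27 at 14 hpa and 9 of 9 in PN5. The 40 members with under 1% of words repeated gave 12 marked bodies in CC and 3 at 14 hpa, and 0 in each of the other lists. On average 35.6% of such a body was covered in CC, with 6.75% at 6 hpa, 16.5% at 14 hpa and 3.74% at 2-cell. Model length moved with the calls too, since the 53 coding-only models gave 46 of 109 marked bodies in CC and 19 of 20 at 6 hpa. The part of either in the result was not tested.

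Coverage was lower just before the reading frame than in it or farther away. On chromosomes 7 and 13, mean coverage in CC was 70.8% at 10 to 20 kb upstream of the coding start, 49.4% in the last 2 kb before it and 73.4% in the first 1 kb of the frame. At 6 hpa the same distances gave 25.2%, 5.57% and 24.1%, and at 14 hpa 44.1%, 12.9% and 27.6%. In morula they gave 25.3%, 3.4% and 8.65%. On chromosomes 6 and 17 the CC values were 27.5%, 7.63% and 9.42%, so the frame itself was covered little more than the 2 kb before it. GC content followed a similar outline, with 40.7%, 36.6% and 41.0% on chromosomes 7 and 13 and 39.4%, 35.5% and 39.2% on chromosomes 6 and 17.

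**Figure D4:**
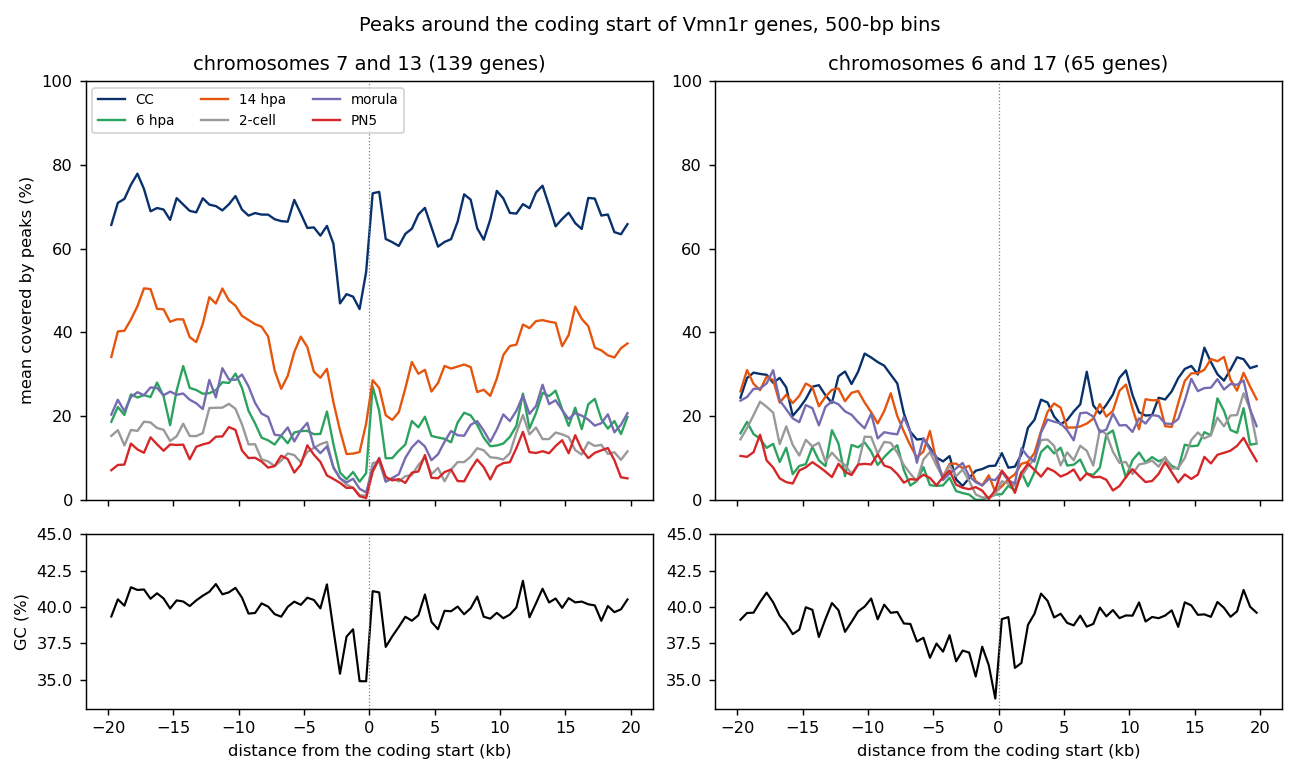
Mean percent of 500-bp bins covered by peaks against distance from the coding start of Vmn1r genes, oriented so that the gene runs to the right, for 6 of the lists (top), and mean GC percent of the same bins (bottom). On chromosomes 7 and 13 the last 2 kb before the start are a trough in every list shown, and the first 1 kb of the frame returns to 73.4% in CC.

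GC content and coverage moved together in every list. In 1-kb windows of the 8 clusters, CC coverage went from 39.2% below 36% GC to 69.2% at 42% GC or more. The same windows gave 1.65% and 44.2% at 6 hpa, 10.04% and 56.5% at 14 hpa, 0.66% and 32.96% at 2-cell and 1.07% and 18.6% in PN5. In CC, windows of 36% to 38% GC were covered to 63.2% on chromosomes 7 and 13 and to 20.5% on chromosomes 6 and 17. At 2-cell the same windows gave 1.99% and 2.82%. The part of GC content in the differences between lists or between chromosomes was not tested.

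**Figure D5:**
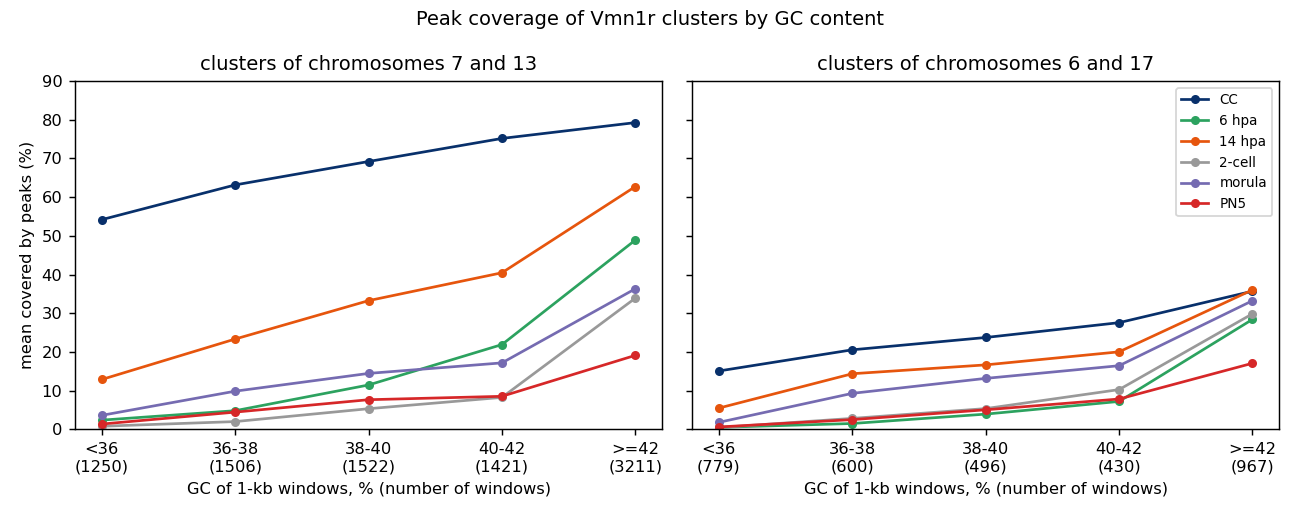
Mean percent of 1-kb windows of the Vmn1r clusters covered by peaks, by GC content of the window, for 6 of the lists. Coverage is higher at higher GC in each list, and at each GC level the CC line lies far higher on chromosomes 7 and 13 (54.2% to 79.3%) than on chromosomes 6 and 17 (15.1% to 35.7%).

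Over the 8 clusters together, coding bases were covered less often than the sequence around them. In that sum, coding bases of members were covered to 53.7% in CC and sequence outside genes to 62.8%, and at 14 hpa to 21.01% and 38.1%. In morula these values were 7.81% and 22.0%, and in ICM 4.5% and 20.0%. On chromosomes 7 and 13 alone the CC values were near each other, 74.9% in coding bases and 72.9% outside genes, as were those at 6 hpa, 26.3% and 25.2%. On chromosomes 6 and 17 they were 9.54% and 30.6% in CC. Over all 8 clusters, soft-masked bases outside genes reached 25.1% in ICM, against 12.2% for bases there that were not masked. In CC the corresponding values were 65.6% and 58.6%. Vmn1r pseudogenes are degraded copies of such genes, and most but not all of the 118 autosomal ones lie in the 8 clusters. Of the 118, 58 (49.2%) were marked in CC, compared with 10 at 6 hpa, 28 (23.7%) at 14 hpa and 3 at 2-cell. The 4-cell, 8-cell and ICM lists marked 10 pseudogenes each (8.47%), morula 14 (11.9%), and TE and PN5 6 each (5.08%). From 4-cell to TE these shares were higher than those of all members together, 0.481% to 2.88%, and of all protein-coding genes, 0.788% to 2.09%. The 53 members whose model is the coding sequence alone, with a median of 924 bp, had 1.89% marked at 4-cell. At 8-cell they had 9.43%, in morula 11.3%, and in ICM and TE 7.55% each. Gene length was not matched here, and its part was not tested.

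Other genes within the clusters carried peaks as well. Of 85 other protein-coding genes there, 50 (58.8%) were marked in CC, 22 at 6 hpa, 26 at 14 hpa, 2 at 2-cell and 9 in PN5. Over all autosomal protein-coding genes the shares in these lists were 4.11%, 3.29%, 2.9%, 1.62% and 1.99%. Of these 85, 36 carried Gm numbers, genes predicted without an assigned name. They gave 28 of the marked bodies in CC, 19 at 6 hpa, 18 at 14 hpa, 2 at 2-cell and 8 in PN5. The 49 named genes gave 22, 3, 8, 0 and 1 in the same order. Some named genes are receptors too, among them V1ra8, V1rd19, Fpr-rs3 and several Vmn2r genes. Genes of the Zscan4 group, which are expressed at the 2-cell stage in mouse embryos, lie inside cluster 7b. Zscan4c had 83.8% of its body covered in CC, 33.4% and 34.5% at 6 hpa and 14 hpa, and none at 2-cell. Zscan4d had 70.5%, 28.6%, 14.8% and 0% in the same order. From signal tracks, the paper describes H3K9me3 at Zscan4d as persisting from donor cells to 2-cell SCNT embryos. Coverage by called peaks is another measure, and 0% does not show that the modification was absent. Trim28, a corepressor that recruits H3K9 methyltransferase activity and that also lies in cluster 7b, had at most 4.29% in any list.

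Among receptor families of the same kind, Vmn2r genes, the other large family of vomeronasal receptors, had a higher share in CC than Olfr genes. In CC 46 of 121 Vmn2r bodies were marked (38.02%), and 46 of 1128 Olfr genes (4.08%), the olfactory receptors, near the background share. At 14 hpa the counts were 6 (4.96%) and 20 (1.77%). At 6 hpa no Vmn2r gene was marked, with a mean coverage of 8.36%, against 14.9% in Vmn1r genes. Gene length differs between these families, with a median of 27146 bp in Vmn2r and 5994 bp in Olfr, and the same threshold asks for a longer peak in a longer gene.

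Of 12 genes of vomeronasal signalling, none had a marked body in CC or in any SCNT list, where 0.788% to 4.11% of all genes were marked, and the highest body value in CC was 4.03%. In PN5 their mean body coverage was 18.2%, against 6.33% over all genes. The PN5 value was 44.2% for Trpc2, 28.8% for Gnao1, a G protein subunit, and 25.02% for Itpr3, an inositol trisphosphate receptor. Omp, the olfactory marker protein, was marked in PN5 at 82.5% and at 0% in every other list. Of 9 regulators of vomeronasal neurons, none was marked in CC, and at 6 hpa Neurog1, a proneural factor, had a marked body (53.1%). The promoters of Neurog1, Bcl11b, Tfap2e and Lhx2 were also marked at 6 hpa, with values of 53.7% to 73.9%. In that list 7.17% of all promoters were marked. Of 13 other vomeronasal receptors and partners, the formyl peptide receptors Fpr-rs3, Fpr-rs4 and Fpr-rs6 were covered in full in CC. H2-M1, a class Ib histocompatibility gene, was instead at 0% in CC and marked at 4-cell (65.5%), 8-cell (83.9%) and PN5 (71.4%).

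For 3 receptors with a known ligand, gene-body coverage in CC was low. Vmn1r49, which responds to the urinary ketone heptanone, had no covered base in its body in CC, 6 hpa, ICM, TE or PN5, and 23.4% at 8-cell. Its promoter was marked at 2-cell (54.2%) and 8-cell (83.8%). The mean body coverage of its cluster, 6c, was 19.2% in CC. Vmn1r85 and Vmn1r89, receptors for sulfated steroids in cluster 7b, were covered to 9.77% and 9.64% in CC, where the cluster mean was 51.3%. Their neighbours Vmn1r84, Vmn1r86, Vmn1r87 and Vmn1r88 were low as well, at 3.53% to 30.5%. The 3 receptors were chosen for their ligands after the values were known, and they do not stand for all receptors with a known ligand. Peaks over members had a fold over input close to that of all peaks. The median fold over input in CC was 2.76 for peaks on members and 2.71 for all autosomal peaks, and at 14 hpa 2.62 and 2.73.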

How the data were processed

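H3K9me3 ULI-NChIP-seq and input libraries (74 in all) of 10 groups had been sequenced as read pairs. According to the methods and labels, the authors trimmed reads with cutadapt 1.16, aligned them to mm10 with BWA, removed duplicates with Picard, brought groups to the same read number and called broad peaks with MACS2 against input. The deposited lists give for each peak a fold enrichment over input (a ratio) and a −log10 q-value. Versions of the other tools, the peak threshold and the treatment of reads with several alignments are not given in the sources used here. Read depth per library is unknown here, which limits what an uncovered gene can show. The methods name an earlier publication as the source of the PN5 data.

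Peaks were merged per list, and their overlap with GENCODE M21 genes on the 19 autosomes was computed with Python 3.11.15, NumPy 2.4.6 and SciPy 1.17.1, after the coverage functions had been tested on simulated intervals. A body or promoter was marked at 50% coverage or more. Clusters were runs of members with gaps of at most 1 Mb. Intervals are Wilson 95% intervals. Repeated sequence was the share of 75-base words that occur again in mm10 on either strand. No test between lists was run, because replicates were pooled before peak calling. Members were mainly named by rank: the highest and lowest mean coverage in each cluster, those marked in the most lists and those never covered. The members with the 2 largest differences in each direction for 6 comparisons were named as well. Receptors with a known ligand, and other coding genes inside the clusters, were named outside these ranks. Alternatives were thresholds of 25% and 75%, peaks of −log10 q of at least 2, lists trimmed to equal length, coding sequence in place of the gene, 2 kb upstream as promoter, gaps of 500 kb and members without those of chromosome 7. Members and gene lists were chosen with earlier results of these data known. Values of some genes on these lists are not reported here.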

Additional observations from a re-analysis of the deposited data

How the results depend on the processing

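No analysis paired by replicate was possible because each group gave a single list. The intervals of the differences treated the lists compared as separate sets of genes, although the same genes were scored in each. CC had the highest share of marked bodies and of marked promoters under every alternative. Of 210 alternative values for the main shares, their differences and total cluster coverage, 114 stayed within the counting interval of the value reported and no difference whose interval excluded 0 changed sign. The rest follow, in percent, and the causes were not tested.

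At 25% coverage, bodies marked were 67.3 in CC, with 19.7 at 6 hpa, 33.2 at 14 hpa, 4.33 at 4-cell, 7.69 at 8-cell, 10.1 in morula and PN5, 7.21 in ICM and 5.29 in TE, and promoters 59.1 in CC, 17.8 at 6 hpa, 23.6 at 14 hpa, 6.25 at 2-cell, 8.65 at 4-cell and 8-cell, 7.69 in morula and 7.21 in PN5. At 75%, bodies were 32.7 in CC, 4.81 at 6 hpa, 4.33 at 14 hpa, 0.962 at 2-cell and 0 at 4-cell and in morula, and promoters 26.4 in CC, 3.37 at 14 hpa, 0.962 at 4-cell, 0.481 at 8-cell, ICM and TE, and 0 at 6 hpa, 2-cell, morula and PN5.

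Peaks of −log10 q of at least 2 gave bodies of 0 at 4-cell, 0.481 at 8-cell and 1.44 in PN5, and promoters of 0 in morula and 0.481 in PN5. Trimming to equal length gave bodies of 23.6 in CC, 4.33 at 14 hpa, 0 at 4-cell and 0.481 at 8-cell and in morula, and promoters of 21.2 in CC, 2.88 at 14 hpa and 0 in morula. The body shares of all genes in the same trimmed lists were 2.19 in CC, 1.32 at 14 hpa, 1.66 at 4-cell, 1.49 at 8-cell and 0.831 in morula, so the members lay below them in the last 3. Without chromosome 7, bodies were 25.7 in CC, 0.952 at 6 hpa, 2-cell and PN5, 7.62 at 14 hpa and 0 at 4-cell, 8-cell and morula, and CC promoters 25.7. Coding sequence in place of the gene gave 17.3 at 6 hpa, 19.7 at 14 hpa, 9.13 at 8-cell, 7.21 in morula and 5.29 in TE. The window 2 kb upstream gave 4.81 in morula.

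Differences in percentage points moved as follows. For 6 hpa minus CC they were -27.9 at 75%, -14.9 when trimmed and -24.8 without chromosome 7. For 14 hpa minus 6 hpa they were 13.5 at 25% and -4.33 when trimmed, and the main difference, 3.37, had an interval that held 0. For 2-cell minus 14 hpa they were -27.4 at 25%, -3.37 at 75% and -1.44 when trimmed. For 14 hpa minus PN5 they were 23.1 at 25%, 1.92 at 75% and 0 when trimmed. Coding sequence gave 6.73 for 8-cell minus 4-cell, and 25% gave -4.81 for TE minus morula.

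Total cluster coverage at −log10 q of at least 2 was 55.3 in CC, with 17.1 at 6 hpa, 30.9 at 14 hpa, 12.7 at 2-cell, 9.44 at 4-cell, 8.38 at 8-cell and 16.8 in morula, while ICM gave 16.3, TE 14.1 and PN5 5.76. Trimmed lists gave 41.2, 19.1 and 18.1 for CC, 6 hpa and 14 hpa, 9.44 at 4-cell, 9.45 at 8-cell, 13.8 in morula, 14.6 in ICM and 13.7 in TE. Gaps of 500 kb gave 56.9 in CC, then 18.5 at 6 hpa, 33.1 at 14 hpa and 13.3 at 2-cell. Peak lists hold no depth, so an uncovered gene is one without a called peak and not one shown to lack the modification.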

Other observations

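The trough before the reading frame was present in every list on chromosomes 7 and 13. The last 2 kb before the coding start were covered to 1.73% at 4-cell, 2.52% at 8-cell, 2.77% in ICM and 2.59% in TE, where 10 to 20 kb upstream gave 14.9%, 15.9%, 23.8% and 21.04%. In the same lists the first 1 kb of the frame gave 3.38%, 8.97%, 3.58% and 5.13%. The frame thus stayed below the sequence farther upstream there, unlike in CC.

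In cluster 6a, mean body coverage of members was 1.74% in CC, where all genes had 5.88%, and 2.99% at 14 hpa, and the highest mean was that of ICM, 3.77%, against 3.41% over all genes. Members of cluster 6c likewise had their highest mean outside CC, 19.5% in PN5 against 19.2% in CC. Cluster 6a as a whole was covered to 17.1% in CC and 14.3% in ICM.

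Members rich in repeated words differed in their values. Vmn1r119 and Vmn1r129, with 64.5% and 88.4% of their 75-base words occurring elsewhere in the genome, had no covered base in any list. Vmn1r137, with 100% of its words repeated, was marked in 6 lists. These are single members, and the part of repeated sequence was not tested. Inside cluster 6c, V1ra8, a receptor gene whose symbol does not start with Vmn1r, was at 0% in CC and was covered to 92.4% at 4-cell, 83.6% at 8-cell, 87.0% in morula and 90.4% in PN5, and to 0% in ICM and TE. Vmn1r48 in the same cluster was at 0% at 8-cell and in morula and at 100% in ICM and TE.

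Zfp110, a zinc finger gene inside cluster 7b, had 87.1% of its body covered in ICM and 95.7% in TE, lists in which no member of that cluster was marked.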
